A study of Mus musculus with 9 samples.

Results

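The 9 genes followed here are known together from the macrophages of the splenic red pulp. They are C1qa, C1qb and C1qc, Hmox1, Slc48a1, Slc40a1, Spic, Vcam1 and Cd5l, taken by symbol from tables that hold 23284 gene symbols for each sample. All 9 members had a row in every sample, and all 9 passed the filter on low values, which asked for a value of 1 FPKM (fragments scaled to transcript length and library size) or more in 3 of the 6 samples compared. The set was put together because of its values in DKO and WT monocytic cells, in particular the higher level of Slc48a1 in DKO cells. The members' differences between these groups are therefore a description here and carry no test, and the comparison of the WT subsets was read with the members already known.

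Red pulp macrophages engulf worn red blood cells and recycle their iron. Heme freed in the phagolysosome leaves through the transporter encoded by Slc48a1 (HRG1), the heme oxygenase encoded by Hmox1 splits it into biliverdin, carbon monoxide and iron, and the iron leaves the cell through ferroportin, the product of Slc40a1. The ETS factor SPI-C, encoded by Spic, is needed for these macrophages to form, and heme raises Spic and Hmox1 by relieving repression by BACH1. VCAM1 is an adhesion molecule that marks these cells, Cd5l encodes a protein secreted by tissue macrophages, and C1qa, C1qb and C1qc encode the chains of C1q, the recognition subunit of the classical complement pathway, which macrophages are a main source of.

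RNA was sequenced from myeloid-derived suppressor cells (MDSCs), immature myeloid cells that accumulate in tumour-bearing hosts, purified from the spleens of mice carrying spindle cell tumours (SCTs). There were 3 groups of 3 samples: neutrophil-like PMN-MDSCs and monocyte-like Mo-MDSCs, both of WT mice, and Mo-MDSCs of mice that lack p16 as well as p21 (p16/p21-DKO). All mice bore SCTs, a line derived from the skin of a p16-knockout mouse, and PMN-MDSCs of DKO mice were not analysed here. The labels name the strain C57BL/6J for the WT mice and C57BL/6 for the DKO mice, so strain and genotype cannot be told apart, and they give the age of all 9 samples as 3 weeks, whereas in the study's methods 3 weeks is the time from injection of the tumour cells to collection. The subsets were isolated with a magnetic kit, PMN-MDSCs as Ly6G+ cells and Mo-MDSCs as Ly6G- Gr-1+ cells, and the methods describe the subsets as highly pure and name no step that removes macrophages. The knockout is one of the mouse, with no driver specific to MDSCs named. The labels do not say that the 3 samples of a group came from separate animals, and p-values measure only the spread between these samples.

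Cdkn2a, which encodes p16, had FPKM values of 0.718, 0.772 and 0.432 in WT Mo-MDSCs and of 0.258, 0.586 and 0 in the libraries labelled DKO. Cdkn1a, which encodes p21, stood at 8.18, 6.46 and 8.04 in WT Mo-MDSCs and at 5.55, 8.52 and 6.00 in the libraries labelled DKO, so those groups overlapped for both genes. The sources used here do not say which part of each gene was deleted, and a value summed over the gene does not check the labels. The labels were therefore used as given, and DKO stands below for the libraries so labelled. The files give no read counts, so depth in reads is unknown. The relative depth calculated from genes of low value ran from 0.809 to 1.31 of that of WT Mo-MDSC replicate 1, the sum of all FPKM values ran from 494252 to 916642, and between 11299 and 11418 genes reached 1 FPKM. The library numbers in the labels are lower for replicate 1 of all 3 groups than for replicates 2 and 3, and what this gap stands for is not known.

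The members were among the more abundant transcripts of all 3 groups, the PMN-MDSCs included. Per length, Hmox1 had the highest mean of the members in each group and ranked 37th of 23284 genes in PMN-MDSCs, 55th in WT Mo-MDSCs and 16th in DKO Mo-MDSCs. Slc48a1 had the lowest mean of the members in each group, at ranks 825, 789 and 380. Between these lay C1qc, C1qb and C1qa, in that order in each group, then Slc40a1 and Vcam1, Cd5l and Spic. In WT Mo-MDSCs the neighbours C1qc and C1qb, C1qb and C1qa, and Vcam1 and Slc40a1 differed by less than the larger of their SDs. In DKO Mo-MDSCs so did every neighbouring pair from C1qc down to Vcam1 as well as Cd5l and Spic, and in PMN-MDSCs C1qb and C1qa, and Slc40a1 and Vcam1.

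**Figure D1:**
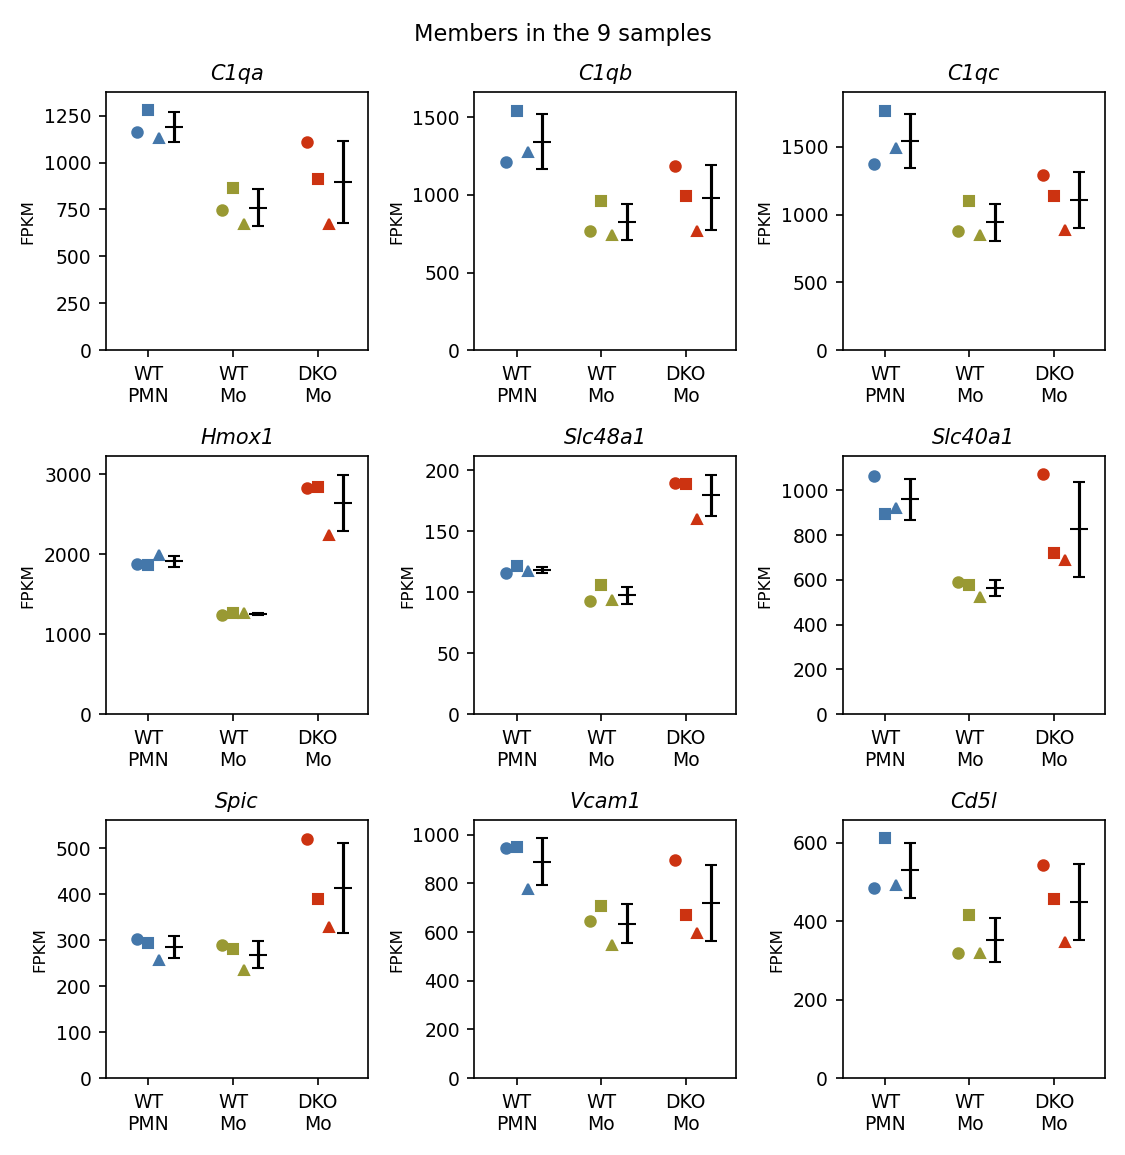
FPKM of each member in the 9 samples, with 1 panel per gene and an axis that starts at 0; the circle is replicate 1, the square replicate 2 and the triangle replicate 3, and the black bar is the mean ± SD (n = 3). For Hmox1, Slc48a1 and Spic all 3 DKO points lie above the 6 WT points, and for the C1q genes the DKO points run from the WT Mo-MDSC range up to just under the PMN-MDSC points.

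The other markers of splenic macrophages were at substantial levels as well. Of 17 such markers that are not members, 17 reached 1 FPKM in all 3 PMN-MDSC samples and 16 did so in each of the Mo-MDSC groups. Adgre1, the gene of the macrophage antigen F4/80 (listed as Emr1), lay between 154 and 234 FPKM over the 9 samples, Itgad, an integrin chain of red pulp macrophages, between 160 and 272, and Axl and Mertk, receptors for dying cells, between 222 and 366 and between 78.3 and 150. Markers of the marginal zone were lower: Marco ran from 11.9 to 103 FPKM and Cd209b from 0.123 to 2.18. In these bulk samples, fewer cells of a type and less RNA per cell cannot be told apart.

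The comparison of Mo-MDSCs from DKO and WT mice addresses what the absence of p16 and p21 goes with in these cells. The heme genes stood apart from the C1q genes in it. Hmox1 was 2.08-fold higher in DKO Mo-MDSCs and Slc48a1 1.84-fold higher, Spic and Slc40a1 were 1.52-fold and 1.44-fold higher, and C1qa, C1qb, C1qc, Vcam1 and Cd5l lay between 1.13-fold and 1.27-fold, with groups that overlapped.

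Slc48a1, the transporter that lets heme out of the phagolysosome, stood at 92.8, 105.6 and 93.7 FPKM in WT Mo-MDSCs and at 189.5, 189 and 159.95 in DKO Mo-MDSCs. All 3 DKO values lay above all 3 WT values, and also above the PMN-MDSC values of 115.7, 121.2 and 117.6. The log2 fold change was 0.88 (SE 0.10), on the log2(FPKM + 0.1) scale used for every log2 value below. The gene lies at chr15:97778520-97792692 on the plus strand (GRCm38), and its end overlaps that of Hdac7 on the opposite strand by 29 bases. The mean of Hdac7 was 20.1 FPKM in WT Mo-MDSCs against 23.5 in the DKO group, below that of Slc48a1, and whether reads were counted by strand is not given in the sources used here.

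Hmox1, the inducible heme oxygenase, stood at 1242, 1262 and 1266 FPKM in WT Mo-MDSCs and at 2832, 2844 and 2233 in DKO Mo-MDSCs. The WT samples were nearly level, with an SD of 13.2 against 349 in the DKO group, and the groups did not overlap. The log2 fold change was 1.06 (SE 0.13). The gene lies at chr8:75093621-75100589 on the plus strand. PMN-MDSCs, at 1875, 1866 and 1985 FPKM, lay between the Mo-MDSC groups without overlapping either.

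Slc40a1, which encodes the iron exporter ferroportin (chr1:45908068-45926523, minus strand), stood at 591, 576 and 525 FPKM in WT Mo-MDSCs and at 1071, 718 and 689 in DKO Mo-MDSCs. DKO replicate 1 was far above the other DKO samples, and all 3 were above WT. The log2 fold change was 0.52 (SE 0.17), and without DKO replicate 1 it was 0.32.

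Spic, the transcription factor of red pulp macrophages (chr10:88674772-88685015, minus strand), stood at 289.9, 280.4 and 235 FPKM in WT Mo-MDSCs and at 520.4, 390.5 and 328.5 in DKO Mo-MDSCs. Again the groups did not overlap, and DKO replicate 1 was the highest. The log2 fold change was 0.60 (SE 0.17), and 0.42 without that sample. PMN-MDSCs, at 303, 294 and 257 FPKM, overlapped WT but not DKO Mo-MDSCs.

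The C1q genes lie side by side on the minus strand of chromosome 4, C1qb at chr4:136880129-136886187, C1qc at chr4:136889804-136893065 and C1qa at chr4:136895917-136898803, a stretch of 18675 bases. C1qa stood at 746, 863 and 670.3 FPKM in WT and at 1107, 913 and 671 in DKO Mo-MDSCs. C1qb stood at 768, 959 and 745 FPKM in WT and at 1186, 989 and 768 in DKO Mo-MDSCs. C1qc stood at 876, 1101 and 850.2 FPKM in WT and at 1296, 1139 and 886 in DKO Mo-MDSCs. In all 3 genes the highest DKO sample was replicate 1, the highest WT sample was replicate 2, and the groups overlapped. The log2 fold changes were 0.22 (SE 0.19), 0.24 (SE 0.18) and 0.22 (SE 0.17) for C1qa, C1qb and C1qc, and without DKO replicate 1 they were 0.05, 0.09 and 0.10. The chains kept close proportions to each other over all 9 samples: C1qc to C1qb ran from 1.09 to 1.17, and C1qa to C1qb from 0.830 to 0.971.

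Vcam1, the adhesion molecule (chr3:116109949-116129688, minus strand), stood at 644, 708 and 549 FPKM in WT and at 894, 670.3 and 596 in DKO Mo-MDSCs. The groups overlapped, the log2 fold change was 0.17 (SE 0.17), and without DKO replicate 1 it was 0.00. Vcam1 overlaps the antisense gene Gm43109, and Fcna, named below, the antisense gene Fcnaos, whose reads cannot be told apart without strand. Cd5l, the secreted macrophage protein (chr3:87357881-87371073, plus strand), stood at 319, 416 and 319 FPKM in WT and at 542, 457 and 348 in DKO Mo-MDSCs. These overlapped too, with a log2 fold change of 0.34 (SE 0.18). Cd5l stayed near a fixed proportion of C1qb, but the groups did not overlap: it was 0.386 to 0.401 of C1qb in PMN-MDSCs, 0.415 to 0.434 in WT and 0.453 to 0.462 in DKO Mo-MDSCs.

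All 9 members were above 0 in this comparison, with a median log2 fold change of 0.34 beside -0.02 over the 11451 genes tested, and 4 of 9 had all DKO values above all WT values. Over all genes tested 7.96% had groups that did not overlap in that direction, and since the members were chosen on this contrast nothing is read from their count. Scaling every sample to the same total moved the median of all genes to 0.14 and the log2 fold change of Slc48a1 to 1.04. This scaling shifts all genes of a sample alike, so the distance of Slc48a1 to the median, 0.90, was bound to stay the same. Within replicates 2 and 3, which have the higher library numbers, the log2 fold changes were 1.00 for Hmox1, 0.81 for Slc48a1 and 0.48 for Spic. They were 0.35 for Slc40a1, 0.13 for Cd5l, 0.02 for Vcam1 and 0.04 to 0.05 for the C1q genes. Replicate 1 alone is 1 sample a group and gives no spread of its own.

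**Figure D2:**
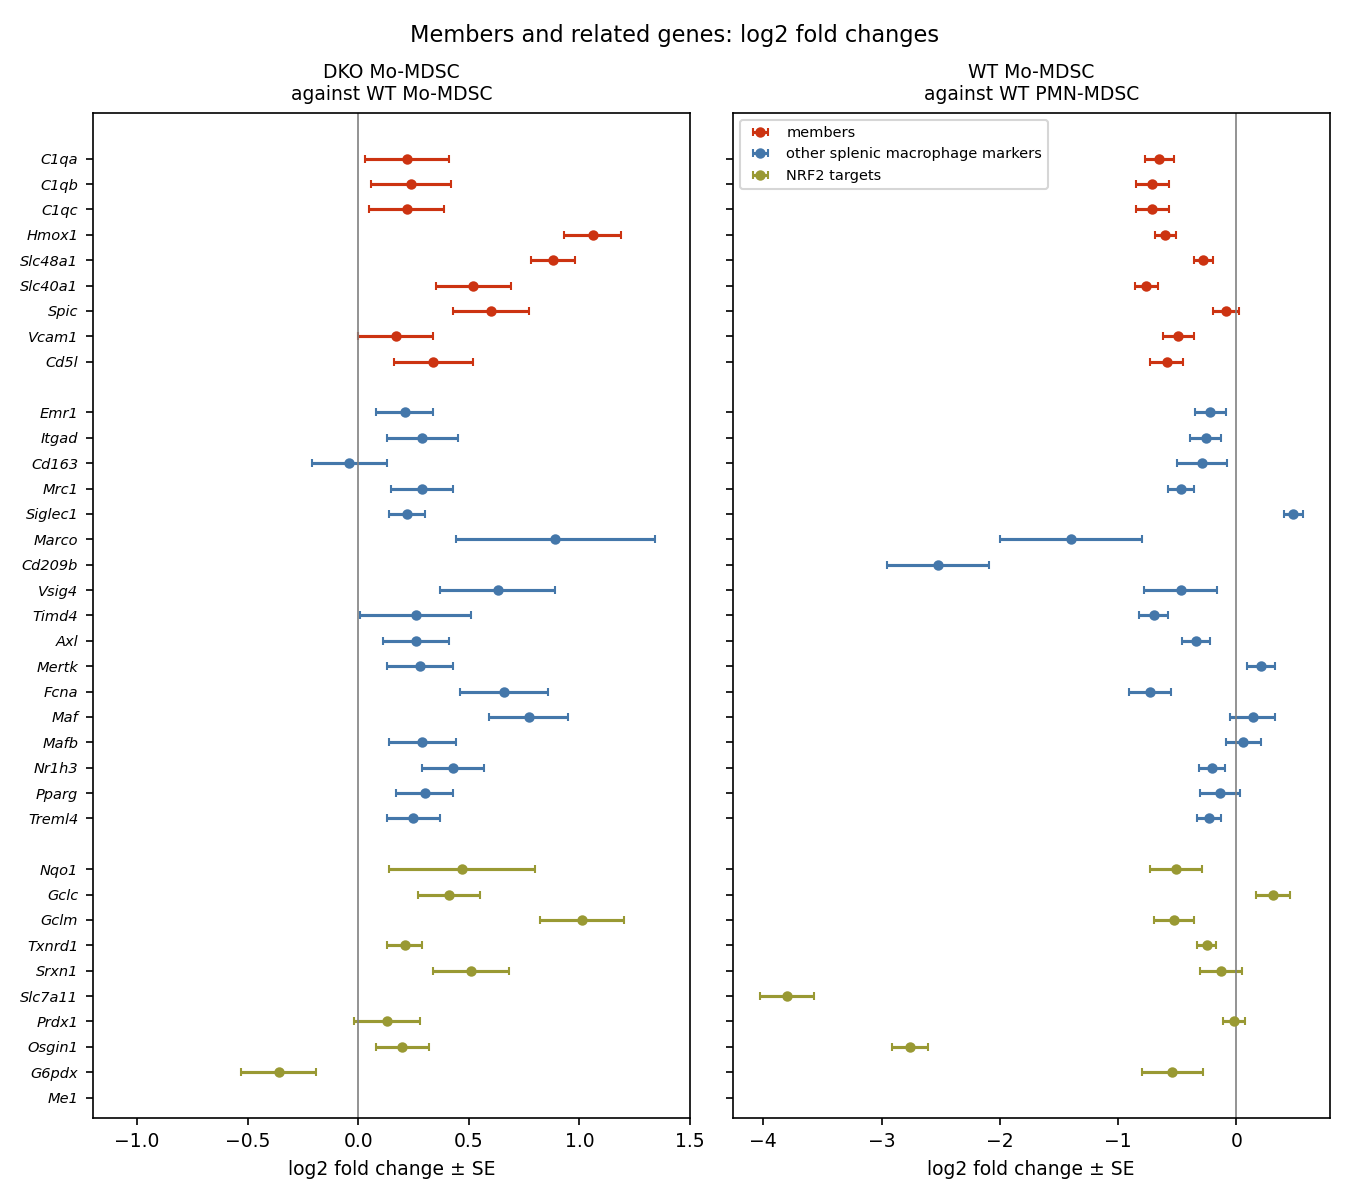
Log2 fold changes ± SE for the members (red), the other splenic macrophage markers (blue) and NRF2 target genes (olive), for DKO against WT Mo-MDSCs on the left and WT Mo-MDSCs against PMN-MDSCs on the right (axes differ); a gene with no point did not pass the filter on low values. Hmox1 at 1.06 and Slc48a1 at 0.88 stand to the right of the C1q genes at 0.22 to 0.24 in the left panel, and the members lie below 0 in the right panel on the deposited scale, where Slc48a1 and Spic turn positive under other scalings.

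Set against the mean of the C1q genes in the same sample, the heme genes differed between the groups in the same order. Hmox1 was 1.56, 1.30 and 1.68 times the mean C1q level in WT Mo-MDSCs, against 2.37, 2.81 and 2.88 times in the DKO group. Slc48a1 was 0.117, 0.108 and 0.124 of it in WT Mo-MDSCs, against 0.158, 0.186 and 0.207 in the DKO group. For both genes the groups did not overlap. The scaling of a sample does not change this ratio, but the members were chosen on this contrast, so the ratios are a description only. Spic was 0.364, 0.288 and 0.312 of the mean C1q level in WT Mo-MDSCs, against 0.435, 0.385 and 0.424 in the DKO group, again without overlap. The ratios of Slc40a1, at 0.591 to 0.742 in WT and 0.708 to 0.895 in DKO Mo-MDSCs, and those of Vcam1, at 0.727 to 0.808 and 0.661 to 0.769, overlapped. Cd5l, at 0.400 to 0.428 in WT and 0.449 to 0.453 in the DKO group, differed by little but did not overlap. Between the WT subsets too the ratios of Slc48a1, Spic and Cd5l did not overlap. In PMN-MDSCs they were 0.079 to 0.093, 0.192 to 0.242 and 0.379 to 0.399. Those of Hmox1, Slc40a1 and Vcam1 overlapped between the WT subsets.

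**Figure D3:**
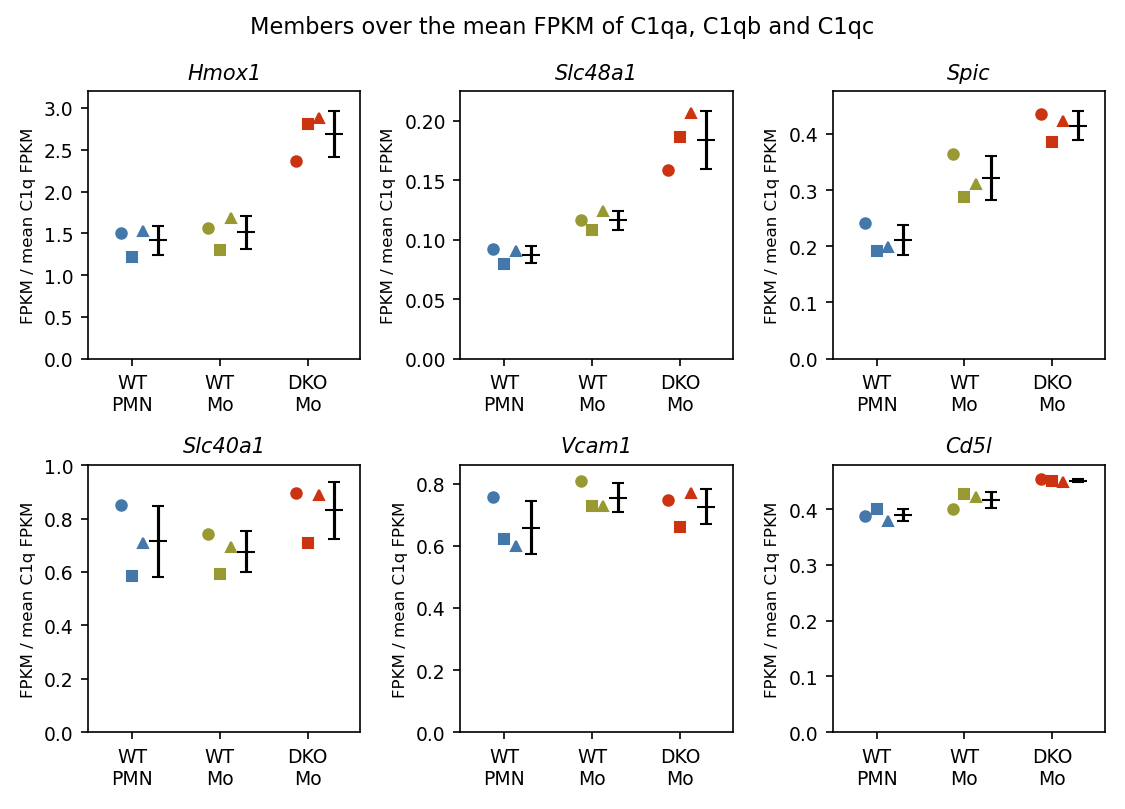
FPKM of the 6 members outside the C1q genes, divided by the mean FPKM of C1qa, C1qb and C1qc in the same sample; symbols and bars are as in the plot of FPKM by sample. The DKO points of Hmox1 (2.37 to 2.88) and Slc48a1 (0.158 to 0.207) lie above all WT points, those of Cd5l (0.449 to 0.453) lie just above, and those of Vcam1 and Slc40a1 overlap.

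The other macrophage markers were tested in the same comparison, since they were not members. Of 16 tested, 0 passed an adjusted p-value of 0.05 in limma, where 0.253% of all genes tested did, and 5 had an unadjusted p-value below 0.05, all higher. Among all 11451 genes tested, 604 were higher at that unadjusted level and 5320 were above 0. Of these markers 15 of 16 were above 0, and their median log2 fold change was 0.29. The widest differences among those whose groups did not overlap were in Maf, a transcription factor of resident macrophages, at 0.77 (SE 0.18, adjusted p = 0.156), and Fcna, the gene of ficolin A, a lectin of the complement system, at 0.66 (SE 0.20, adjusted p = 0.217), both chosen after their values were seen. The summed FPKM of the 17 markers was 1811 to 2435 in WT and 2345 to 3274 in DKO Mo-MDSCs. Their part in the members' differences was not tested. The values of the C1q genes, Vcam1 and Cd5l, at 0.17 to 0.34, lay in the range of these markers. So did those of Spic and Slc40a1, at 0.60 and 0.52. Hmox1, at 1.06, lay above and Slc48a1, at 0.88, beside the highest of these markers, Marco, at 0.89 (SE 0.45).

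Of the markers of other cell types 0 passed the adjusted threshold in limma. At an unadjusted p-value below 0.05, 7 of 9 neutrophil and 5 of 7 monocyte markers were lower, as were 1115 of all 11451 genes tested. The neutrophil marker Mmp8 went the other way, at 0.79 (SE 0.18, adjusted p = 0.156), with groups that did not overlap. The summed neutrophil markers ran from 17900 to 61874 FPKM in WT and from 7063 to 17126 in DKO Mo-MDSCs, the monocyte markers from 2268 to 2588 and from 1802 to 1999, and the B cell markers from 1020 to 1148 and from 1092 to 1373. The erythroid markers, which bear on heme, ran from 3052 to 6394 FPKM in WT and from 3848 to 5624 in DKO Mo-MDSCs. Of them 10 of 10 tested were above 0, beside 5320 of all 11451 genes. Their median log2 fold change was 0.55, and the groups overlapped for each of them. T and NK cell, dendritic cell, platelet and endothelial markers summed to 77 FPKM at most in any sample. The part of these cells in the members' differences was not tested.

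**Figure D4:**
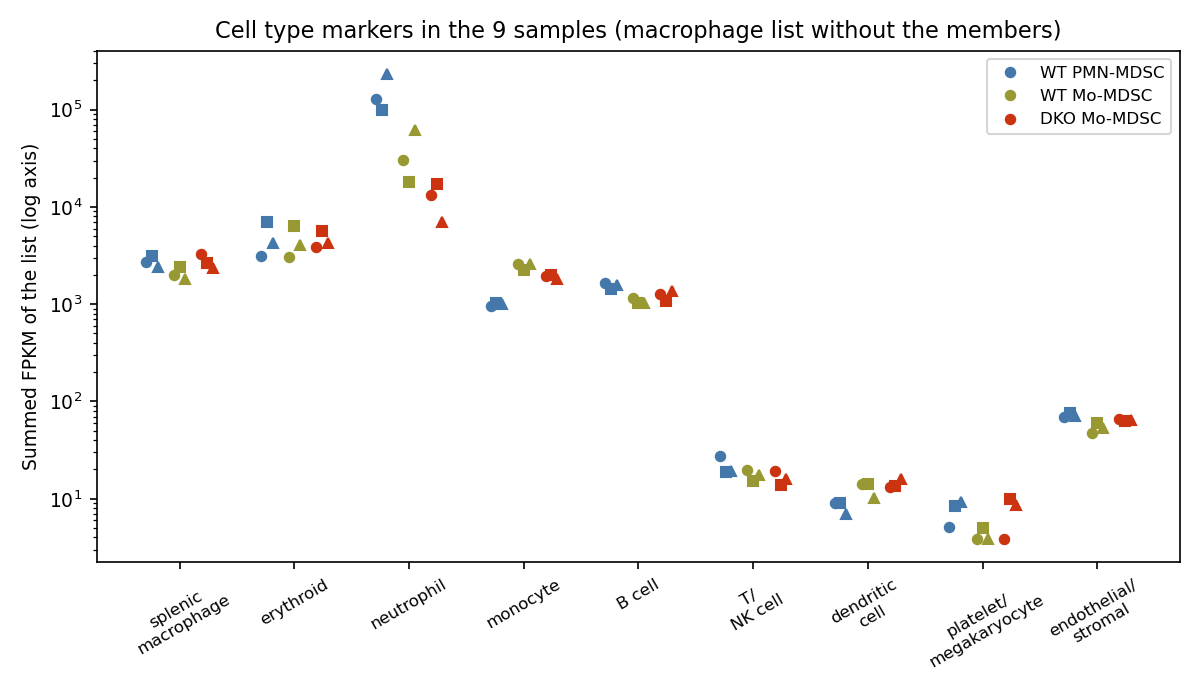
Summed FPKM of each list of cell type markers in the 9 samples on a log axis, with the 9 members left out of the macrophage list; symbols mark replicates 1 (circle), 2 (square) and 3 (triangle). The macrophage sums run from 2438 to 3149 in PMN-MDSCs, from 1811 to 2435 in WT and from 2345 to 3274 in DKO Mo-MDSCs. The neutrophil sums run from 7063 to 232737 over the 9 samples.

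The rest of the heme and iron pathway showed no called change between DKO and WT Mo-MDSCs. Over all lists, those of cell type markers, complement and adhesion genes included, 0 of 143 genes tested that are not members passed the adjusted threshold in limma. At an unadjusted p-value below 0.05, 24 of them were higher and 21 lower, as were 604 and 1115 of all 11451 genes tested. Gclm passed the adjusted threshold with all 9 samples in 1 fit, with a block on replicate number and without WT Mo-MDSC replicate 2, and Fth1 when every sample was scaled to the same total. Among the 10 tested genes of heme transport and breakdown the median log2 fold change was 0.09, with Blvrb, a biliverdin reductase, at 0.36 (SE 0.15) and Flvcr1, a heme exporter (listed as Mfsd7b), at -0.29 (SE 0.09). Ferritin heavy chain, Fth1, which stores iron, stood at 2148, 2369 and 2122 FPKM in WT and 3629, 4147 and 3302 in DKO Mo-MDSCs. These groups did not overlap, and the log2 fold change was 0.73 (SE 0.14) with an adjusted p of 0.108. Fth1 has near-identical copies in the genome, so its values are uncertain. Among 9 tested genes of heme synthesis 8 were above 0, beside 5320 of all 11451 genes, with a median of 0.34 and 0 at an unadjusted p-value below 0.05.

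The targets of NRF2, the activator of the antioxidant response that also drives Hmox1, were above 0 in 7 of 8 tested genes, with a median log2 fold change of 0.31, 4 of them higher at an unadjusted p-value below 0.05 and 0 past the adjusted threshold in limma. Gclm, a subunit of the enzyme that begins glutathione synthesis, stood at 24.3, 39.1 and 25.8 FPKM in WT and 53, 68.9 and 55.5 in DKO Mo-MDSCs. Its groups did not overlap, and the log2 fold change was 1.01 (SE 0.19) with an adjusted p of 0.111. Slc7a11, the cystine transporter of the same list, did not pass the filter in this comparison, at 0.378, 0.239 and 0.371 FPKM in WT and 1.22, 1.26 and 0.980 in DKO Mo-MDSCs. The regulators went both ways. Bach1, the heme-sensitive repressor of Hmox1 and Spic, was at -0.25 (SE 0.10), Nfe2l2, which encodes NRF2, at -0.27 (SE 0.09) and Spi1, which encodes PU.1 (listed as Sfpi1), at -0.57 (SE 0.14), with adjusted p-values of 0.293, 0.256 and 0.169 in limma. Bach2, a repressor related to Bach1, was at 0.55 (SE 0.16, adjusted p = 0.218) and Spib, an ETS factor related to Spic, at 0.37 (SE 0.10, adjusted p = 0.199). None of these 5 had groups that overlapped. Of all 11451 genes tested, 912 had all DKO values above all WT values and 1472 had all below. Fth1, Gclm, Slc7a11, Blvrb, Flvcr1 and these regulators are named in this comparison after their values were seen.

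The genes whose pattern over the 9 samples was most like that of Slc48a1 were found by the root mean square difference of log2 values centred on each gene's mean, over 11725 genes. Pdlim4 came first, at 0.136, and Hmox1 second, at 0.146, ahead of X99384, Clec16a and Ppm1n at 0.161 to 0.172. The other genes of this list were far less abundant than the members, with Pdlim4 between 7.83 and 14.7 FPKM. For the mean of the C1q genes the nearest of 11723 genes were Ptms at 0.071, Cd5l at 0.092, 2810405K02Rik at 0.098, Cmbl at 0.10 and Cfp, the gene of properdin, a stabiliser of the alternative complement pathway, at 0.101. The members were chosen on values in DKO and WT Mo-MDSCs, which are among these samples. Nothing is therefore read from the places of Hmox1 and Cd5l in these orders.

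Upstream sequences are shown for the 4 of 9 members that had an entry in the RefSeq promoter table (GRCm38.p6). C1qb, C1qc and Cd5l stayed near fixed proportions to each other over the samples. Spic, set beside them, ran from 0.192 to 0.435 of the mean C1q level, although its DKO samples fell in the same order as those of C1qb. The first is chr4:136886201-136886450 (minus strand), the second chr4:136893066-136893164 (minus strand), the third chr3:87357631-87357880 (plus strand) and the last chr10:88683024-88683273 (minus strand), which lies within the span of Spic in GENCODE and outside its exons. Each ends at the base before the RefSeq start except that of C1qc, which covers bases -250 to -152. Capitals mark GAGGAA on either strand (TTCCTC on the other), a PU box, which ETS factors such as PU.1 and SPI-C can bind.
C1qb: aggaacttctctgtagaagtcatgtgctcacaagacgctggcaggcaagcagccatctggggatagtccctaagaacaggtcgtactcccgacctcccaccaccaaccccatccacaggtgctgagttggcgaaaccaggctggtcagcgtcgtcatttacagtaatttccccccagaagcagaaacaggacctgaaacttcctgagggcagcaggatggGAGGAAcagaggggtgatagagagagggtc
C1qc: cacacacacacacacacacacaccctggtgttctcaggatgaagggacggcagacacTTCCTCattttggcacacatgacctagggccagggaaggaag
Cd5l: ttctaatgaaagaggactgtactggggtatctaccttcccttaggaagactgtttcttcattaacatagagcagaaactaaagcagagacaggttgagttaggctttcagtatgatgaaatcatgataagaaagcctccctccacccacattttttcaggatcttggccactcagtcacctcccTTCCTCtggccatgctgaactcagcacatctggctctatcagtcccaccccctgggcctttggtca
Spic: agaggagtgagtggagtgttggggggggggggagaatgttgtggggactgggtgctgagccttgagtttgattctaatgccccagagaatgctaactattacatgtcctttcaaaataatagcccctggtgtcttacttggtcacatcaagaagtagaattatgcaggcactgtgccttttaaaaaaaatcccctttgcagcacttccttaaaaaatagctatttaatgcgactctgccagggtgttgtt

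The PU box letters occurred in the sequences of C1qb, C1qc and Cd5l and not in that of Spic. Counted from the start site, the matches began at -30, -193 and -66. Of all 32851 promoters searched 28.3% held them, and so did 3 of the 4 shown. The letters TGACNNNGC, the core of the antioxidant response element that NRF2 and BACH1 bind, were searched on both strands too and occurred in the C1qb sequence at -103 (minus strand), beside 12.4% of all promoters. A match of letters is a description and not a site.

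The comparison of WT Mo-MDSCs with WT PMN-MDSCs addresses how the subsets differ. It shares the WT Mo-MDSC samples with the comparison above, and it was fitted without pairing the samples by replicate number. In total 8 of the 9 members were lower in Mo-MDSCs in the values as deposited, and Spic did not pass the test. The C1q genes and Slc40a1 differed most and Slc48a1 least of these 8. Under other scalings of the libraries fewer were called, and Slc48a1 was no longer lower.

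C1qa stood at 1163, 1279.7 and 1129 FPKM in PMN-MDSCs, C1qb at 1212, 1541 and 1274 and C1qc at 1377, 1766 and 1489, and none of these overlapped the WT Mo-MDSC values given above. C1qa fell by 0.65 (SE 0.12), C1qb by 0.71 (SE 0.14) and C1qc by 0.71 (SE 0.14) on the log2 scale, with adjusted p-values of 0.00493, 0.00748 and 0.00768 in limma. Slc40a1, at 1065, 894 and 921 FPKM in PMN-MDSCs, fell by 0.76 (SE 0.10, adjusted p = 0.00138), and Hmox1 fell by 0.60 (SE 0.09, adjusted p = 0.00207). Cd5l, at 486, 611 and 492 FPKM in PMN-MDSCs, fell by 0.59 (SE 0.14, adjusted p = 0.0159), and Vcam1, at 944, 949 and 777 FPKM, fell by 0.49 (SE 0.13, adjusted p = 0.0238). Slc48a1 fell by 0.28 (SE 0.08, adjusted p = 0.0267) with groups that did not overlap, and Spic was at -0.09 (SE 0.11, adjusted p = 0.573) with groups that did.

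In all, 8 of 9 members were called lower, where 20.6% of the 11491 genes tested were, and 8 of 9 had groups that did not overlap in that direction, as had 26.4% of all genes. The members' median log2 fold change was -0.60 beside 0.01 over all genes. The calls depended on the scaling. PMN-MDSC libraries devoted 18.5% to 28.9% of their summed FPKM to their 10 highest genes and WT Mo-MDSCs 9.56% to 15.3%. When every sample was scaled to the same total, the median of all genes moved to 0.45, 0 members were called, and Slc48a1 and Spic stood at 0.16 and 0.36. This scaling shifts all genes of a sample alike, so a gene's distance to that median could hardly change and says nothing about the scaling. That distance was -0.29 for Slc48a1, -0.09 for Spic and -0.66, -0.71 and -0.72 for C1qa, C1qb and C1qc. Under quantile normalisation Hmox1 at -0.32 and Slc40a1 at -0.38 were called, and Slc48a1 and Spic were at 0.06 and 0.35. Relative to the median of all genes under that normalisation, Slc48a1 was at 0.0 and Spic at 0.29. Within replicates 2 and 3 there were 3 members called (C1qc, Hmox1 and Slc40a1), and there were 5 (the C1q genes, Hmox1 and Slc40a1) without WT Mo-MDSC replicate 1 and the same 5 without WT Mo-MDSC replicate 3.

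Of 17 other macrophage markers tested, 4 were lower in Mo-MDSCs in limma (Cd209b at -2.52, Fcna at -0.73, Timd4 at -0.70 and Mrc1 at -0.47), where 20.6% of all genes were, 1 was higher (Siglec1, CD169, at 0.48), and the median was -0.26. With scaling to the same total the median was 0.20, with 2 called higher and 0 lower. Their summed FPKM was 2438 to 3149 in PMN-MDSCs and 1811 to 2435 in WT Mo-MDSCs. The neutrophil markers summed to between 99666 and 232737 FPKM in PMN-MDSCs, the monocyte markers to between 969 and 1019 there, and the B cell markers to between 1434 and 1635, against 1020 to 1148 in WT Mo-MDSCs. Erythroid markers, at 3098 to 6945 FPKM in PMN-MDSCs, overlapped those of WT Mo-MDSCs, and 0 of 10 passed the test in limma, with 0 at an unadjusted p-value below 0.05. Monocyte markers were called higher in Mo-MDSCs in 6 of 7 genes and neutrophil markers lower in 6 of 9, and their part in the members' differences was not tested.

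Of 20 tested genes of iron uptake, storage and export, 6 were called lower in WT Mo-MDSCs and 1 higher (Slc11a2, an iron importer, at 0.51), and with scaling to the same total 3 were lower and 5 higher. The metalloreductase gene Steap4 stood at 173, 106 and 231 FPKM in PMN-MDSCs and 0.849, 0.836 and 1.72 in WT Mo-MDSCs, which gave -7.11 on the log2 scale. Fbxl5, the iron-sensing ubiquitin ligase subunit, was at -2.32, and the ferritin chains Fth1 and Ftl1 were at -1.0 and -0.78, with values that are uncertain because of near-identical copies. Of 10 tested genes of heme transport and breakdown, 2 were called higher, the heme-hemopexin receptor Lrp1 at 0.97 and Flvcr1 at 0.73. In the same list 3 were called lower, Hebp1 at -0.63, Pgrmc1 at -0.30 and Blvra at -0.27. With scaling to the same total 3 were called higher and 0 lower, and Pgrmc1 and Blvra turned to 0.14 and 0.17. Under quantile normalisation 2 were called higher and 0 lower. Alas1, the first enzyme of heme synthesis outside red cells, was the only gene called of 9 in that pathway, at -0.88. Its groups overlapped, and its adjusted p-value in limma was 0.048. With scaling to the same total 0 of the 9 were called, and 0 under quantile normalisation.

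Of the 9 regulators tested 5 were called lower and 0 higher, led by Spi1 at -1.21, Maff at -0.81, Nfe2l2 at -0.73 and Mafk at -0.58. With scaling to the same total 3 were higher and 2 lower. NRF2 targets were lower in 4 of 9 tested genes and higher in 0: Slc7a11 at -3.80, Osgin1, a stress-induced growth inhibitor, at -2.76, Gclm at -0.53 and Txnrd1, a thioredoxin reductase, at -0.25, which turned to 0.19 with scaling to the same total, where 2 of the list were called higher and 2 lower. The complement list went both ways, with 5 of 21 called higher and 9 lower, and 6 higher and 4 lower with scaling to the same total. Cd93, long studied as a receptor for C1q, was at 2.85, whereas the C5a receptors C5ar1 and C5ar2 (listed as Gpr77) were at -3.79 and -2.43. Of 8 tested partners of VCAM1 and related genes, 4 were called higher and 2 lower, with the integrin chains Itgb7 at 1.71 and Itga4, part of the VCAM1 receptor, at 0.57, and the linkers to actin Ezr and Msn at -1.11 and -0.57. Over all lists 67 of 147 tested genes were called, beside 18.5% of all genes called higher and 20.6% lower, and the count was 105 when the fit was blocked on replicate number.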

How the data were processed

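Libraries were stranded mRNA libraries read from one end. The authors aligned the reads to mm10 with TopHat2 2.0.13, Bowtie2 2.2.3 and SAMtools 0.1.19, and deposited FPKM values from Cuffnorm 2.2.1 for each sample, as given in the methods and the submitters' processing notes. The annotation and the Cuffnorm scaling are not given in the sources used here. Values were compared as deposited, as log2(FPKM + 0.1), for genes that reached 1 FPKM in 3 or more of the 6 samples. Each comparison was fitted on its 6 samples with limma 3.58.1 (lmFit, then eBayes with a trend) in R 4.3.3, with Benjamini-Hochberg adjustment over all genes tested and a call at an adjusted p-value of 0.05. The median SE was 0.122 (DKO against WT) and 0.118 (WT Mo-MDSCs against PMN-MDSCs) on the log2 scale. The script was checked on simulated data. Python 3.11.15 and pandas 2.3.3 were used for the rest.

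The members and gene lists were chosen with earlier results of these data known. Of 175 list genes 164 were found under the same symbol, 8 under an older symbol and 3 had no row. Genes named by rule were the members, the targeted genes, up to 4 called genes per pathway list and comparison, the markers and the 5 genes most like Slc48a1 and C1q. The values of 1 gene so named are not reported here. Deviations of same-numbered samples from their group means correlated at 0.372, 0.384 and 0.179 between WT Mo-MDSCs and PMN-MDSCs. By the data those numbers were taken to pair the samples, as the labels state no pairing. The main fit did not use this pairing, so the SEs, p-values and calls given above for the subsets are unpaired. The replicate block, which uses the pairing, is among the alternatives, and with it the SE of C1qb was 0.06 in place of 0.14. Alternatives were pseudocounts of 1 and 0.01, other filters, 1 fit of all 9 samples, scaling to the same total, quantile normalisation, the replicate block, replicates 2 and 3 only, and leaving out each sample. Coordinates are from GENCODE (GRCm38).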

Additional observations from a re-analysis of the deposited data

How the results depend on the processing

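For DKO against WT Mo-MDSCs, 29 genes were called. There were 13 without a filter, 51 with all 9 samples in 1 fit, 6 in replicates 2 and 3 only and 8 to 25 when each sample was left out. The 0 list genes called became 1 when every sample had to reach 1 FPKM, 2 with all 9 samples in 1 fit, 2 with scaling to the same total, and 0 to 3 when each sample was left out. The genes called there were Ccr2, Gclm, Fth1, Ly6c2 and Marco, of which Ccr2, Ly6c2 and Marco are named after their values were seen. The log2 fold change of Slc48a1 was 0.81 to 1.04 over all alternatives, 1.04 being the value with scaling to the same total.

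For WT Mo-MDSCs against PMN-MDSCs, 4492 genes (2121 higher, 2371 lower) became 6790 (5853 higher, 937 lower) with scaling to the same total and 2759 in replicates 2 and 3 only. The 8 members called became 0, 2 (quantile normalisation), 3 (replicates 2 and 3 only) and 5 to 8 when each sample was left out. Slc48a1 turned to 0.16 with scaling to the same total and 0.06 with quantile normalisation, Spic to 0.36 and 0.35 and from -0.16 to 0.01 when each sample was left out (0.01 without WT Mo-MDSC replicate 3), and Pgrmc1 and Txnrd1 to 0.14 and 0.19 with scaling to the same total. Fewer samples were fitted where samples were left out, and for the other settings the cause was not tested.

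With the replicate number as a block, 105 list genes in place of 67 and 6584 genes in all were called between the subsets, and the members called stayed at 8. Between DKO and WT Mo-MDSCs same-numbered deviations correlated at 0.424, 0.295 and 0.059, so these numbers were not taken to pair the samples, although same-numbered samples have neighbouring library numbers. The block then called 20 genes and 1 list gene (Gclm). Single genes were counted as unchanged in 651 of the values recomputed. For tested values this means the same direction and the same side of the threshold. The members between DKO and WT Mo-MDSCs carry no test, and for them it means a log2 fold change that moved by less than the SD. Among tested values the call was lost in 73 and gained in 4, and the direction reversed in 7. Among the untested values of the members 3 moved by the SD or more. Depth in reads is unknown, so no limit of detection was set.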
